A study of Mus musculus with 21 samples.

Results

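The genes described here are those of the AP-1 transcription factors: Fos, Fosb, Fosl1 and Fosl2 of the Fos family, Jun, Junb and Jund of the Jun family, and Atf3. They were taken by symbol from a count table of 24984 mouse genes, 8 of 24984, and all 8 passed the filter on low counts that left 16959 genes for testing. The assay was BrU-seq, which reads nascent RNA: cells build bromouridine into new transcripts, and the labelled transcripts are pulled out and sequenced. Primary cortical cultures of CD1 mice, of mixed sex, were used on day 17 in vitro. All cultures were first held for 30 min either in 25 µM MM401 or in its solvent DMSO, then received 40 µM bicuculline or water for 1 h or 4 h, with 2 mM bromouridine in the last 30 min. The peptidomimetic MM401 keeps the histone methyltransferase MLL1 (gene Kmt2a) from binding WDR5, and bicuculline, an antagonist of GABA-A receptors, takes inhibition away from the neuronal network.

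The 7 groups were DMSO with water for 4 h, DMSO with bicuculline for 1 h, DMSO with bicuculline for 4 h, MM401 with water for 1 h, MM401 with water for 4 h, MM401 with bicuculline for 1 h and MM401 with bicuculline for 4 h. Each had 3 libraries labelled as biological replicates, and no group carried a genetic change. A DMSO group with water for 1 h was not analysed here, so that the DMSO response at 1 h is set against water at 4 h. Replicate 3 of MM401 with water for 4 h held 316741 counts and was left out, which leaves 2 libraries in that group and 20 in all. The others held 49886348 to 87939384 counts. Levels are CPM, which are counts scaled to the TMM-scaled library total, and changes are given on the log2 scale with a standard error (SE) and, in places, a 95% interval. A gene was called where its Benjamini-Hochberg adjusted p from edgeR's quasi-likelihood test was under 0.05.

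AP-1 factors bind DNA as dimers of basic leucine zipper proteins. Jun proteins can pair with each other, with Fos proteins or with ATF proteins, whereas Fos proteins need a partner of another family. In neurons Fos, Fosb and Junb are classic immediate early genes, induced by calcium entry and by kinase signalling to the factors CREB and SRF, without new protein synthesis. Their proteins then act on later genes. Counts over a whole gene do not part isoforms such as full-length Fosb and its truncated form ΔFosB.

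On mouse build mm10 the authors' table places Fos on chromosome 12 from 85473889 to 85477274, Fosb on chromosome 7 from 19302695 to 19310045, Fosl1 on chromosome 19 from 5447697 to 5455938 and Fosl2 on chromosome 5 from 32136471 to 32157839. Jun lies on chromosome 4 from 95049035 to 95052222, Junb on chromosome 8 from 84976908 to 84978748, Jund on chromosome 8 from 70697738 to 70700616 and Atf3 on chromosome 1 from 191170296 to 191183333. For 7 of the 8 genes the table's start lies 1 base before that of RefSeq. Spans ran from 1841 bases (Junb) to 21369 bases (Fosl2). Reads were counted over the whole gene, introns included. Fosl1 overlaps Ccdc85b on the opposite strand by 2777 bases, and since the use of strand is not given in the sources used here, its count is uncertain.

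Promoters are shown because the 8 genes moved together with bicuculline. RefSeq sequence (build GRCm38.p6, the assembly of mm10) was matched for 7 of the 8 genes, all but Fosl1, and was searched from 250 bases before the start to 50 bases after it, on both strands. The letters searched were the cyclic AMP response element TGACGTCA, its core TGACGT and its part TGACG (each contained in the element before it), the AP-1 element TGAGTCA, the form TGACATCA known from the Jun promoter, TATAAA, and the CArG box by name. The lines below give the 250 bases before the start, 5′ to 3′ on the strand of the gene, for the 5 genes with a match to TGACG (alone or within TGACGT) or to TGACATCA, which is in capitals. They are Fos at chr12:85473640-85473889 on the plus strand and, on the minus strand, Fosb at chr7:19310046-19310295, Jun at chr4:95052223-95052472, Junb at chr8:84978749-84978998 and Atf3 at chr1:191183334-191183583.
Fos: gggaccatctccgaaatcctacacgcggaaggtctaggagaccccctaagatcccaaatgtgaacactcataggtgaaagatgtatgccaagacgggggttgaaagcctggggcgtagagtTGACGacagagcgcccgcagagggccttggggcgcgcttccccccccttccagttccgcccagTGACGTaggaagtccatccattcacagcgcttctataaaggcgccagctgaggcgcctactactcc
Fosb: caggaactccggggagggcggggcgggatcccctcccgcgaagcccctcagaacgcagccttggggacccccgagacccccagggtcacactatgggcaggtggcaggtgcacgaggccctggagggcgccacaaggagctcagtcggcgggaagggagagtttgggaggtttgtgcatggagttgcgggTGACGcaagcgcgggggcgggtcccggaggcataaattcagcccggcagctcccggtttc
Jun: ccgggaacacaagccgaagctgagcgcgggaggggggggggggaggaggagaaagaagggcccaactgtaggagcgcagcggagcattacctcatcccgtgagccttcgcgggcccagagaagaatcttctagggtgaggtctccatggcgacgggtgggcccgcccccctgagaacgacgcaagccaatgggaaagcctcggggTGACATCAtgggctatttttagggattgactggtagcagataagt
Junb: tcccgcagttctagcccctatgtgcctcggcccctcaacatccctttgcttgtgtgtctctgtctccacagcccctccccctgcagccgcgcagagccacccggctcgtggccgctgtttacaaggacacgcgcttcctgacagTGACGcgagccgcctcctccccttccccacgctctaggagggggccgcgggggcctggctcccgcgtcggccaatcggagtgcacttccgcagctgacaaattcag
Atf3: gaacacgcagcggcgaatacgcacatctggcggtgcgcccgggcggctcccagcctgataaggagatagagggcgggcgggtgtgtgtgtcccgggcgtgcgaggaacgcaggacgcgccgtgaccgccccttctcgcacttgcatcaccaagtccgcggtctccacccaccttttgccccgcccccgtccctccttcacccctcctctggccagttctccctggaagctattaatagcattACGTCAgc

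TGACGT was found in 2 of the 7 members' windows, Fos at -66 to -61 and Atf3 at -8 to -3 (there on the opposite strand, read as ACGTCA), counting the base before the start as -1. Of all 32851 windows of 300 bases, 7.51% held it. TGACG was found in 4 of 7, those of Fos, Fosb (-60 to -56), Junb (-106 to -102) and Atf3, against 20.8% of all windows. TGACATCA was found in 1 of 7, that of Jun (-45 to -38), against 3.62%. TATAAA was found in 2 of 7, Fos (-33 to -28) and Junb, against 13.6%. The Junb match covers bases 1 to 6 of the gene itself, so it does not lie before the start or in the line printed above. The whole element TGACGTCA (1.79% of all windows), TGAGTCA (5.2%) and the CArG box (1.63%) were found in 0 of 7, and the windows of Fosl2 and Jund held none of the letters searched. Sequence outside these windows was not searched, so a CArG box or other element farther from the start, that of Fos included, would be missed. A match describes the sequence and says nothing of what binds there.

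With bicuculline all 8 genes had more nascent RNA at 1 h than in water, in DMSO and in MM401 alike, and less at 4 h than at 1 h. On the log2 scale Fosb rose by far the most of them at 1 h, though in CPM its rise in DMSO, 227, was close to that of Fosl2 and of Fos (both 216). Atf3 kept most of its rise in CPM at 4 h. In DMSO at 1 h, 8 of 8 were called higher, against a background of 20% of all genes tested, and the median log2 change was 2.57 against -0.04 over all genes. At 4 h in DMSO 7 of 8 were called higher, against 23.7% of all genes, with Jund the exception. In MM401 8 of 8 were called higher at 1 h (background 18.1%) and 8 of 8 at 4 h (background 23%). From 1 h to 4 h of bicuculline, 8 of 8 were called lower in DMSO (background 15.2%) and 8 of 8 in MM401 (background 16%). Libraries did not overlap with water for 8 of 8 genes at 1 h and 7 of 8 at 4 h in DMSO, against 21.3% and 24.6% of all genes higher without overlap, and for 8 of 8 at 1 h and at 4 h in MM401, against 23.3% and 34.2%. Nor did those of 1 h and 4 h of bicuculline for 8 of 8 genes in either pretreatment, against 19.9% and 20.8% of all genes lower without overlap. The DMSO comparisons at 1 h and 4 h share their water libraries. The genes together took 0.0115% to 0.0195% of all counts in the 8 water libraries, 0.0938% to 0.11% in the 6 libraries at 1 h of bicuculline and 0.0418% to 0.0521% in the 6 at 4 h.

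**Figure D1:**
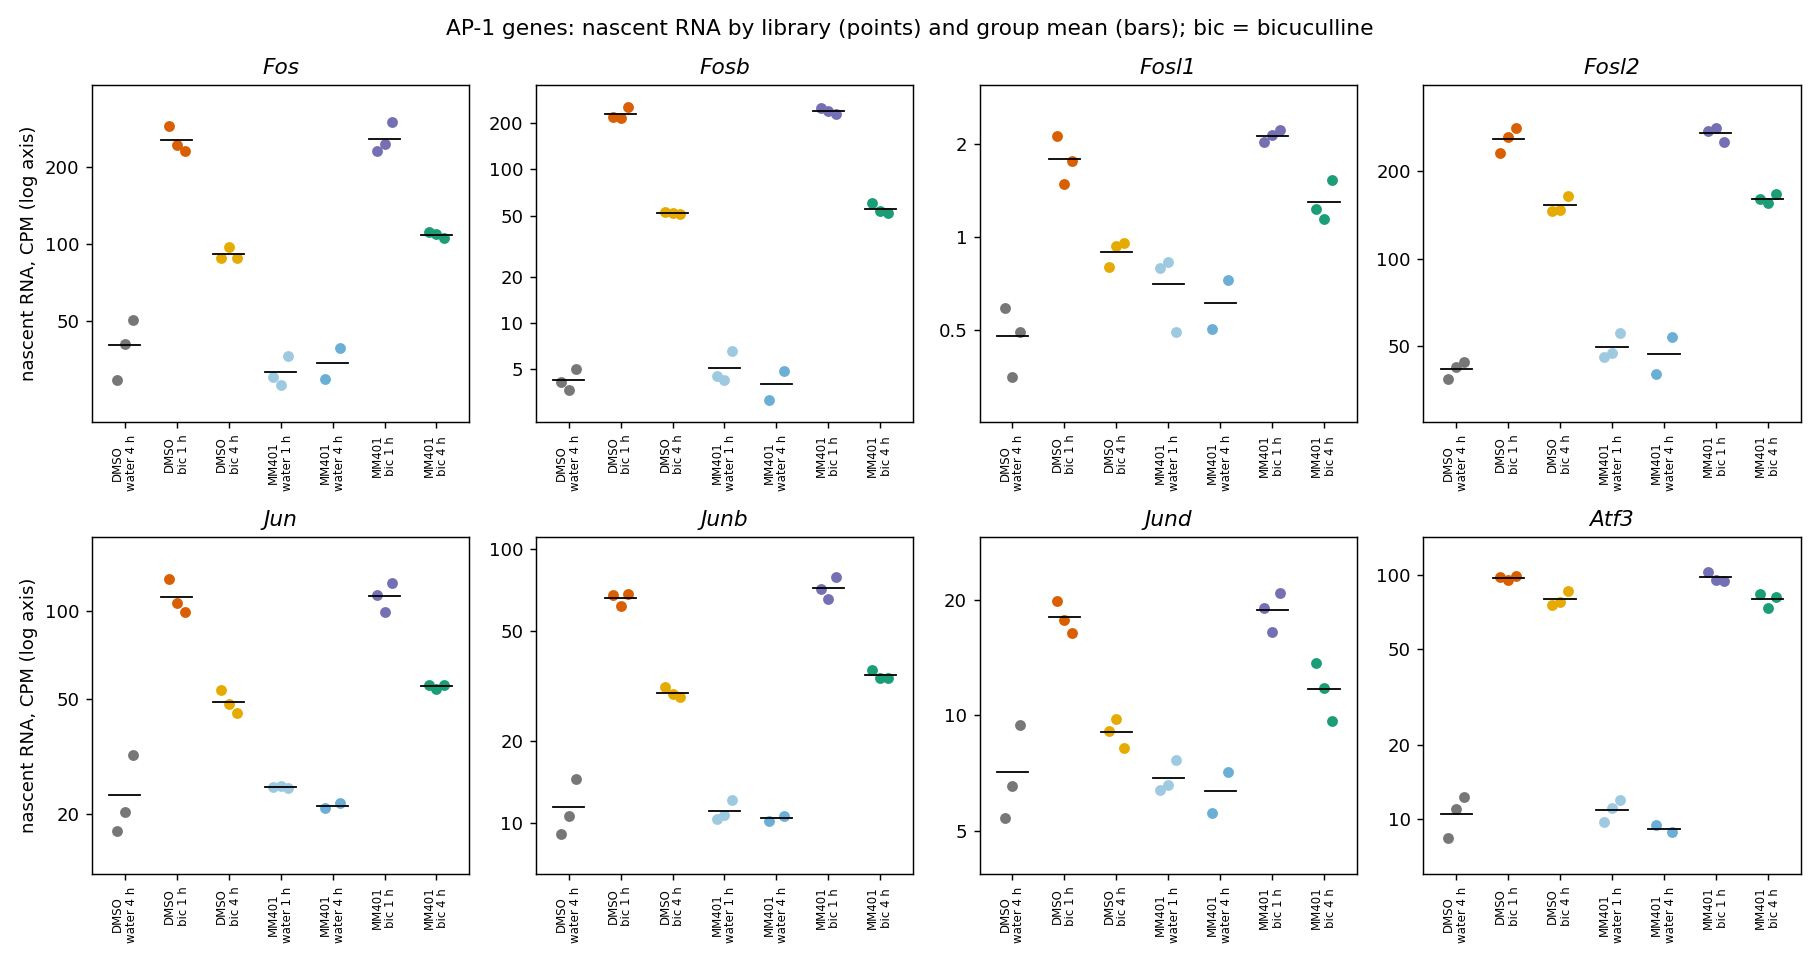
Nascent RNA of each AP-1 gene in CPM on a log axis, 1 point per library and a bar at the mean of each of the 7 groups (n = 3, and n = 2 for MM401 with water at 4 h); bic stands for bicuculline. For all 8 genes the 6 libraries at 1 h of bicuculline lie above all 8 water libraries, and the Fosb libraries at 1 h lie between 218 and 255 CPM.

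The neuronal source was checked on markers, and 5 of 5 general neuronal markers (Snap25, Syt1, Map2, Rbfox3 and Tubb3) were detected, summing to 4523 to 7194 CPM over the 20 libraries. Dlx1 was listed at 0 in all of them, and Gad1, Gad2 and other markers of GABAergic neurons summed to 321 to 381 CPM in water and 486 to 678 CPM in bicuculline. Markers of excitatory neurons summed to 484 to 618 CPM in water and 659 to 1016 CPM in bicuculline. The 5 astrocyte markers summed to 717 to 846 CPM at 1 h of bicuculline, and at 4 h to 577 to 656 CPM in DMSO (water 443 to 666) and 569 to 647 CPM in MM401 (water 414 to 508). Markers of the oligodendrocyte lineage summed to 160 to 187 CPM in water and 188 to 216 CPM in bicuculline. Those of microglia summed at 4 h to 38.1 to 45.2 CPM in bicuculline and 31.3 to 37.1 CPM in water in DMSO, and to 42.8 to 46.8 and 29.4 to 34.1 CPM in MM401. Those of endothelial, mural and fibroblast cells summed to 8.26 to 13.5 CPM. Of the 4 comparisons of bicuculline with water, the excitatory, GABAergic and oligodendrocyte sums were higher without overlap in 4. The general neuronal sum was so in 3, all but 1 h in DMSO (5525 to 5922 CPM against 4523 to 5673 in water). The astrocyte sum was so in all but 4 h in DMSO, the endothelial, mural and fibroblast sum in all but 1 h in MM401, and the microglia sum at 4 h in both pretreatments. Single markers did not all follow the sums. Of the 5 general neuronal markers, 3 were called higher and 2 lower at 4 h in DMSO, and 2 and 2 at 4 h in MM401. At 1 h these counts were 1 and 1 in DMSO and 2 and 0 in MM401. Of the excitatory markers, 1 was called lower in each comparison. The marker sums were thus above water in some or all of the 4 comparisons, and their part in the results was not tested. From 1 h to 4 h of bicuculline in DMSO, where the AP-1 genes fell, several sums rose. The excitatory sum was 680 to 745 CPM at 1 h and 919 to 1016 CPM at 4 h. The GABAergic, general neuronal and microglia sums also rose without overlap. The astrocyte sum fell, from 717 to 823 CPM to 577 to 656 CPM, and the other sums overlapped. In cultures measured in bulk, fewer cells of a type and less RNA per cell cannot be told apart.

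Fos encodes c-Fos, the partner of Jun proteins most used as a mark of neuronal activity. In DMSO it stood at 29.5, 40.6 and 50.7 CPM in replicates 1, 2 and 3 in water, at 291, 245 and 233 CPM after 1 h of bicuculline and at 88.7, 97.5 and 88.4 CPM after 4 h. In MM401 it stood at 30.2, 28.2 and 36.6 CPM in water at 1 h, at 29.6 and 39.1 CPM in water at 4 h, at 232, 246 and 300 CPM after 1 h of bicuculline and at 111, 110 and 106 CPM after 4 h. Water, 4 h and 1 h libraries formed 3 tiers with no overlap in either pretreatment, and replicate 1 of DMSO with water was the lowest of its group. At 1 h Fos rose by a log2 change of 2.66 ± 0.17 in DMSO (SE, edgeR adjusted p = 7.57e-09) and of 3.04 ± 0.18 in MM401 (2.05e-09). At 4 h its log2 change against water was 1.18 ± 0.17 in DMSO (2.57e-05) and 1.67 ± 0.20 in MM401 (5.91e-06). From 1 h to 4 h it fell by 1.48 ± 0.17 on the log2 scale in DMSO (4.06e-06) and by 1.25 ± 0.16 in MM401 (2.49e-05).

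Fosb encodes FosB, a close relative of c-Fos whose truncated isoform is known to build up in neurons with repeated stimulation. It stood at 4.09, 3.64 and 5.01 CPM in DMSO with water, at 221, 218 and 255 CPM after 1 h of bicuculline and at 52.6, 51.9 and 50.9 CPM after 4 h. In MM401 the levels were 4.5, 4.21 and 6.55 CPM in water at 1 h, 3.14 and 4.81 CPM in water at 4 h, 252, 242 and 231 CPM after 1 h of bicuculline and 60.0, 53.7 and 51.7 CPM after 4 h. The water libraries lay far below the others, with no overlap, and the 1 h libraries far above those at 4 h. Fosb was 54.5-fold higher at 1 h in DMSO, a log2 change of 5.77 ± 0.16 (edgeR adjusted p = 3.33e-14) that ranked 3 of 16959 genes from the highest. In MM401 it was 47.5-fold higher, 5.57 ± 0.16 (4.81e-14), the highest of 16959. The 4 h changes were 3.61 ± 0.15 in DMSO (6.71e-12) and 3.79 ± 0.19 in MM401 (9.02e-11). From 1 h to 4 h Fosb fell by 2.16 ± 0.13 in DMSO (1.86e-09) and by 2.13 ± 0.13 in MM401 (2.93e-09), more on the log2 scale than any other of the 8 genes.

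Fosl2 encodes Fra-2, a Fos family member without a strong activation domain. Its levels were 38.5, 42.4 and 44.4 CPM in DMSO with water, 230, 261 and 282 CPM at 1 h of bicuculline and 146, 147 and 165 CPM at 4 h. In MM401 they were 45.9, 47.4 and 55.6 CPM in water at 1 h, 40.2 and 53.8 CPM in water at 4 h, 275, 280 and 252 CPM at 1 h of bicuculline and 161, 156 and 166 CPM at 4 h. The 3 tiers did not overlap here either, but the 4 h libraries lay closer to those at 1 h than for Fos or Fosb. The log2 changes were 2.62 ± 0.10 at 1 h in DMSO (edgeR adjusted p = 5.56e-14), 2.44 ± 0.10 at 1 h in MM401 (1.52e-13), 1.87 ± 0.099 at 4 h in DMSO (6.71e-12) and 1.78 ± 0.11 at 4 h in MM401 (2.75e-10). The fall from 1 h to 4 h was -0.76 ± 0.095 in DMSO (2.58e-06) and -0.74 ± 0.095 in MM401 (3.95e-06).

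Fosl1 encodes Fra-1, the relative of Fosl2, and had the lowest level of the 8 genes, with 29 to 148 counts per library. In DMSO its levels were 0.59, 0.352 and 0.491 CPM in water, 2.12, 1.48 and 1.75 CPM at 1 h of bicuculline and 0.796, 0.936 and 0.951 CPM at 4 h. In MM401 they were 0.792, 0.831 and 0.49 CPM in water at 1 h, 0.503 and 0.722 CPM in water at 4 h, 2.03, 2.13 and 2.21 CPM at 1 h of bicuculline and 1.23, 1.14 and 1.52 CPM at 4 h. The groups compared did not overlap, at these low levels. Its log2 changes were 1.92 ± 0.22 (edgeR adjusted p = 3.81e-07) and 1.59 ± 0.21 (2.96e-06) at 1 h in DMSO and MM401, and 0.94 ± 0.23 (0.0019) and 1.09 ± 0.26 (0.00151) at 4 h. It fell by 0.98 ± 0.20 (0.000584) in DMSO and by 0.71 ± 0.20 (0.00791) in MM401 from 1 h to 4 h. With the shallow library kept, Fosl1 was no longer called at 4 h or between 1 h and 4 h (edgeR adjusted p = 0.0805 to 0.276), and leaving out replicate 1 of the MM401 group with water at 4 h gave a 4 h change in MM401 of 0.83 (0.0523). That leaves 1 library in the group, which is then assumed to vary like the other groups.

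Jun encodes c-Jun, which can activate its own promoter as a dimer. It stood at 17.5, 20.3 and 32.1 CPM in DMSO with water, at 129, 107 and 99.2 CPM at 1 h of bicuculline and at 53.4, 48.2 and 44.8 CPM at 4 h. In MM401 it stood at 24.8, 25.1 and 24.6 CPM in water at 1 h, at 21 and 21.9 CPM in water at 4 h, at 114, 99.6 and 125 CPM at 1 h of bicuculline and at 55.8, 53.8 and 55.9 CPM at 4 h. Replicate 3 of DMSO with water was the highest water library, still below every bicuculline library. Jun rose by 2.26 ± 0.17 (edgeR adjusted p = 3.72e-08) at 1 h in DMSO and by 2.18 ± 0.17 (5.42e-08) in MM401, and at 4 h by 1.06 ± 0.16 (6.66e-05) and 1.36 ± 0.19 (3.49e-05). Between 1 h and 4 h it fell by 1.2 ± 0.16 (2.92e-05) in DMSO and by 1.03 ± 0.16 (0.00013) in MM401.

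Junb encodes JunB, a partner of Fos proteins that activates less strongly than c-Jun at many sites. Its levels were 9.16, 10.6 and 14.5 CPM in DMSO with water, 67.9, 61.8 and 68.4 CPM at 1 h of bicuculline and 31.3, 29.5 and 28.8 CPM at 4 h. In MM401 they were 10.3, 10.7 and 12.1 CPM in water at 1 h, 10.2 and 10.6 CPM in water at 4 h, 71.4, 65.6 and 79.0 CPM at 1 h of bicuculline and 36.0, 33.8 and 33.8 CPM at 4 h. Again the tiers did not overlap. The log2 changes were 2.52 ± 0.11 (edgeR adjusted p = 1.13e-12) in DMSO and 2.70 ± 0.12 (5.2e-13) in MM401 at 1 h, and 1.38 ± 0.11 (4.87e-09) and 1.73 ± 0.13 (4.66e-09) at 4 h. The fall to 4 h was -1.14 ± 0.11 (9.47e-08) in DMSO and -1.06 ± 0.11 (2.78e-07) in MM401.

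Jund encodes JunD, known as the Jun protein that most cells hold without a stimulus. Its levels were 5.42, 6.53 and 9.44 CPM in DMSO with water, 19.9, 17.7 and 16.4 CPM at 1 h of bicuculline and 9.11, 9.79 and 8.24 CPM at 4 h. In MM401 they were 6.4, 6.6 and 7.66 CPM in water at 1 h, 5.58 and 7.13 CPM in water at 4 h, 19.1, 16.5 and 20.9 CPM at 1 h of bicuculline and 13.7, 11.8 and 9.69 CPM at 4 h. At 1 h no library overlapped with water, whereas at 4 h in DMSO replicate 3 of the water group lay inside the range of the bicuculline libraries. Jund rose least of the 8 at 1 h, by 1.33 ± 0.16 (edgeR adjusted p = 3.14e-06) in DMSO and by 1.45 ± 0.17 (1.42e-06) in MM401. At 4 h its log2 change was 0.34 ± 0.17 in DMSO, with an interval from -0.01 to 0.68 (edgeR adjusted p = 0.105, not called), and 0.88 ± 0.19 in MM401 (0.0011). It fell by 0.99 ± 0.16 (8.95e-05) in DMSO and by 0.68 ± 0.16 (0.00284) in MM401 between 1 h and 4 h. The DMSO value at 4 h was called without replicate 3 of DMSO with water (0.56, edgeR adjusted p = 0.00336), under a correction for gene length (0.54, 0.00236) and with DESeq2 (0.36, adjusted p = 0.0452). It was lower without replicate 1 of DMSO with water (0.18, edgeR adjusted p = 0.380) and under plain library sizes (0.049, 0.845).

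Atf3 encodes a stress-induced ATF protein that can pair with Jun proteins and, as a dimer of its own, represses. Its levels were 8.31, 10.9 and 12.3 CPM in DMSO with water, 98.2, 96.0 and 99.4 CPM at 1 h of bicuculline and 75.7, 77.7 and 86.5 CPM at 4 h. In MM401 they were 9.67, 11 and 12 CPM in water at 1 h, 9.39 and 8.78 CPM in water at 4 h, 103, 96.0 and 95.2 CPM at 1 h of bicuculline and 84.2, 73.6 and 81.4 CPM at 4 h. The bicuculline libraries of both times lay far above water, and those at 4 h just below those at 1 h. The log2 changes at 1 h were 3.21 ± 0.10 in DMSO (edgeR adjusted p = 3.86e-15), rank 14 of 16959, and 3.17 ± 0.10 in MM401 (4.56e-15). At 4 h they were 2.92 ± 0.10 (2.08e-14) and 3.13 ± 0.12 (3.75e-13). The fall to 4 h was the smallest of the 8 genes, -0.29 ± 0.092 (0.0181) in DMSO and -0.30 ± 0.093 (0.0163) in MM401. That call was lost without replicate 1 or 2 of DMSO with bicuculline at 4 h (edgeR adjusted p = 0.0775 and 0.0607), and in MM401 without replicate 1 at 1 h or replicate 2 at 4 h of bicuculline (0.0694 and 0.0811) or under plain library sizes (-0.22, 0.181).

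**Figure D2:**
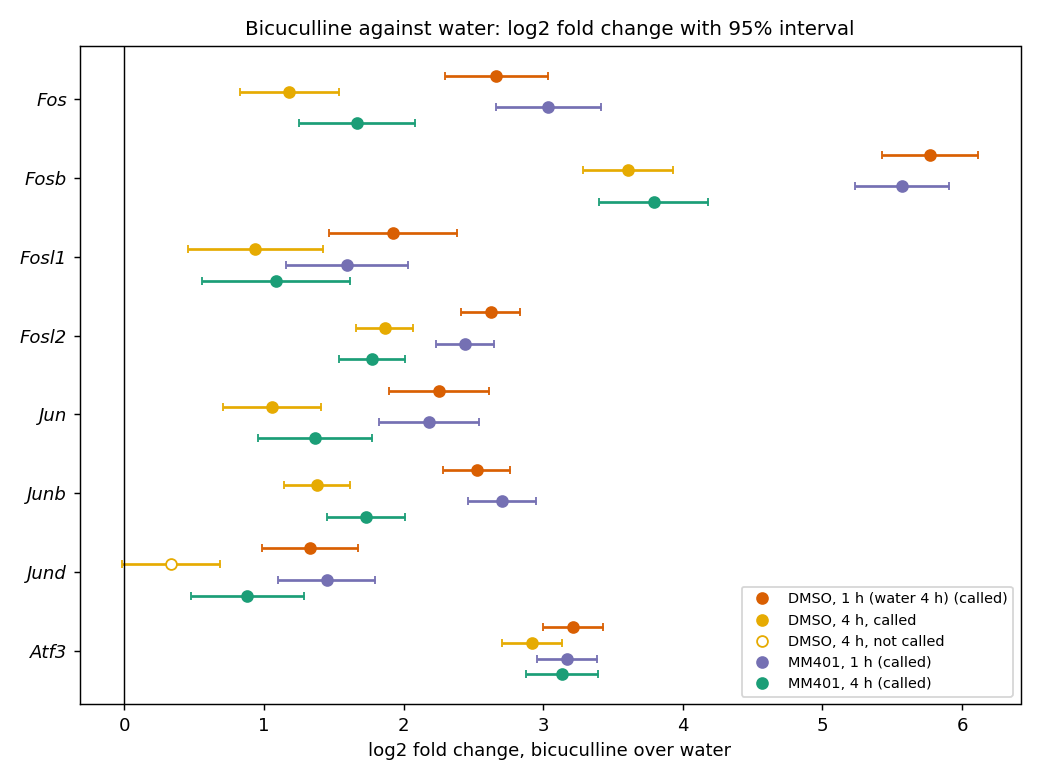
Log2 fold change of bicuculline over water (horizontal axis) for each AP-1 gene with its 95% interval, at 1 h and 4 h in DMSO and in MM401; filled points were called by edgeR. Every point but that of Jund at 4 h in DMSO is filled, and Fosb lies farthest to the right in each comparison.

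As a share of the rise at 1 h in mean CPM, Atf3 kept 79.5% at 4 h in DMSO and 81.0% in MM401. Fosl2 kept 51.2% and 51.9%. Fos kept 23.8% in DMSO and 32.8% in MM401, Fosb 20.9% and 21.6%, Jun 28.8% and 38.4%, and Junb 33.8% and 39.6%. Fosl1 kept 31.9% and 48.3%, and Jund 17.6% and 45.0%. The Jund share in DMSO ran from 10.6% without replicate 1 of DMSO with water to 25.5% without replicate 3, and no other share moved by over 1.5 times when 1 library was left out. These shares use water at 4 h for both times in DMSO and water of the same time in MM401. They were higher in MM401 for 8 of 8 genes, and for 7 of 8 with water at 4 h for both times, where Atf3 kept 79.3%. The ranges on leaving out 1 library overlapped between pretreatments for Fosb, Fosl2 and Atf3. The difference in kept shares between pretreatments was not tested, and kept shares were not worked out over all genes, so these counts have no background. At 4 h of bicuculline, genes under 25 kb, a class that holds all 8, took 10.1% to 10.7% of counts in DMSO and 11.3% to 12.3% in MM401. The part of this difference in the kept shares was not tested.

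**Figure D3:**
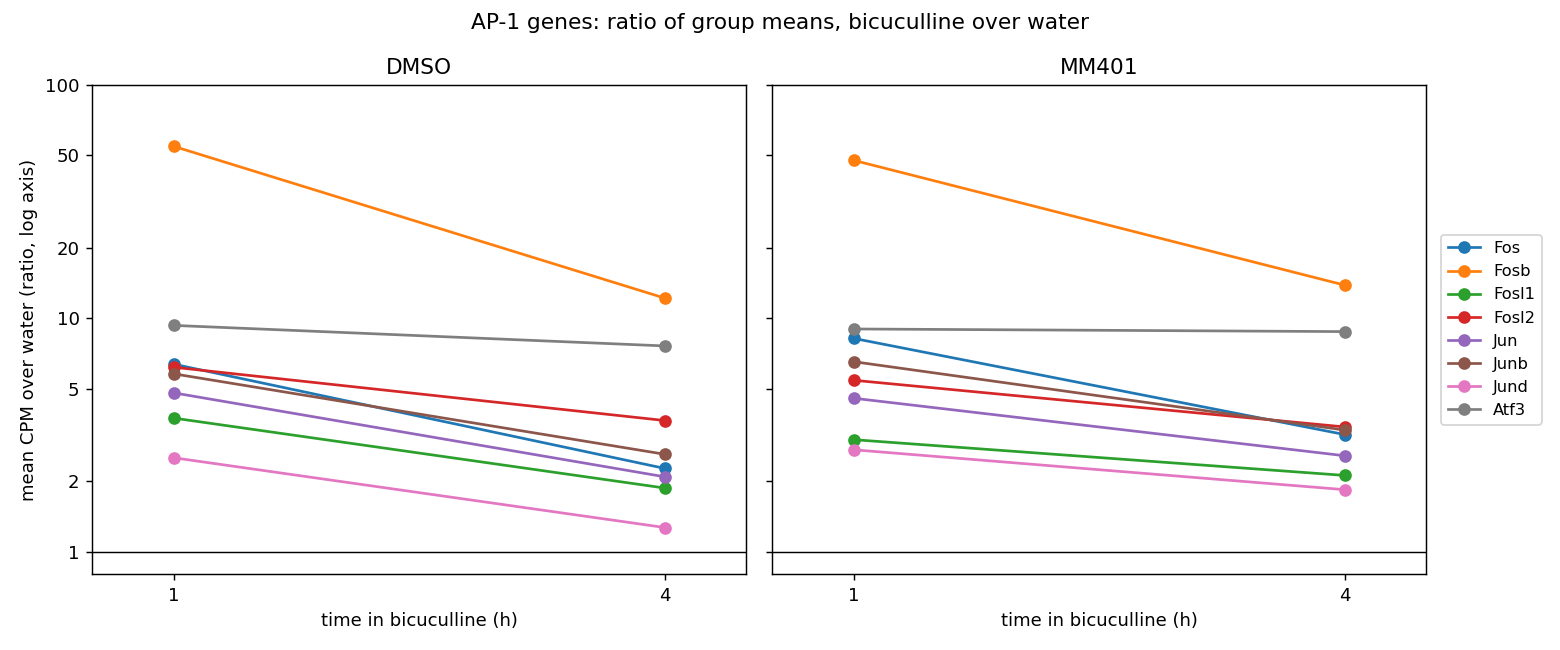
Ratio of the group means in CPM of bicuculline over water (log axis) at 1 h and 4 h for each AP-1 gene, in DMSO (both times over water at 4 h) and in MM401 (each over water of its own time), with no error shown. The line of Atf3 is nearly flat, while that of Fosb drops from 54.5-fold to 12.2-fold in DMSO.

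The make-up of the families shifted with bicuculline. Counts were divided by gene length to compare levels between genes, as CPM per kb. In DMSO with water, Fos had the highest level, 11.9 ± 3.13 CPM per kb (SD, n = 3), with Jun (7.31 ± 2.44) and Junb (6.21 ± 1.5) next. The ranges of these neighbours overlapped. Jund (2.48 ± 0.722) and Fosl2 (1.95 ± 0.14) followed, overlapping each other, then Atf3 (0.805 ± 0.155) and Fosb (0.577 ± 0.0949), which overlapped too, and Fosl1 (0.0579 ± 0.0145). At 1 h of bicuculline in DMSO, Fos stood at 75.6 ± 9.03 CPM per kb, above Junb (35.9 ± 2), Jun (35.0 ± 4.85) and Fosb (31.5 ± 2.76), whose neighbouring ranges overlapped. Fosl2 (12.1 ± 1.22), Atf3 (7.51 ± 0.129), Jund (6.25 ± 0.612) and Fosl1 (0.216 ± 0.0388) followed without overlap. At 4 h the order was Fos (27.0 ± 1.52), Junb (16.2 ± 0.684), Jun (15.3 ± 1.36), Fosl2 (7.13 ± 0.506), Fosb (7.05 ± 0.118), Atf3 (6.13 ± 0.441), Jund (3.14 ± 0.27) and Fosl1 (0.109 ± 0.0104), and only Junb with Jun and Fosl2 with Fosb overlapped. The order of the means in MM401 was the same as in DMSO at each time of bicuculline.

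Within the Fos family, Fosb supplied 4.08% ± 0.82 of the counts per kb in DMSO with water (SD, n = 3), 26.5% ± 3.02 at 1 h of bicuculline and 17.1% ± 0.655 at 4 h. In MM401 it supplied 5.51% ± 0.611 in water at 1 h (n = 3) and 4.13% ± 0.406 in water at 4 h (n = 2), against 27.0% ± 2.96 and 15.8% ± 0.832 at 1 h and 4 h of bicuculline (n = 3). Fos went from 81.7% ± 3.1 in DMSO with water to 63.2% ± 4.39 at 1 h and 65.4% ± 1.69 at 4 h. Fosl2 went from 13.8% ± 2.25 to 10.2% ± 1.48 and then 17.3% ± 1.46, and Fosl1 was under 1% in every library. The ratio of Fosb to Fos per kb was 0.0502 ± 0.012 in DMSO with water, 0.422 ± 0.0777 at 1 h and 0.261 ± 0.0144 at 4 h. Library scaling cancels in these shares, but not the division by length. On counts without it, Fosl2, the longest gene, held 48.6%, 34.5% and 51.3% in DMSO with water and at 1 h and 4 h of bicuculline, above Fos at 45.9%, 34.3% and 30.9% in the group means, with ranges that overlapped in water and at 1 h. Fosb on counts held 4.93%, 31.0% and 17.5%, again the highest at 1 h.

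Within the Jun family, the share of Jun had group means from 43.2% to 48.2%. In MM401 it was lower in every bicuculline library (41.8% to 44.7%) than in every water library (45.4% to 49.8%), whereas in DMSO the libraries overlapped (42.1% to 48.0% and 44.2% to 47.5%). On counts not divided by length the Jun shares overlapped in both pretreatments. Junb went from 39.1% ± 1.79 in DMSO with water to 46.6% ± 3.29 at 1 h of bicuculline and 46.8% ± 1.08 at 4 h (SD, n = 3). In MM401 it went from 37.0% ± 1.6 in water at 1 h to 48.3% ± 0.695 at 1 h of bicuculline. Jund went from 15.5% ± 0.25 to 8.1% ± 0.36 and 9.07% ± 0.684 in DMSO. In both pretreatments the Junb share of each bicuculline library lay above, and the Jund share below, that of every water library.

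**Figure D4:**
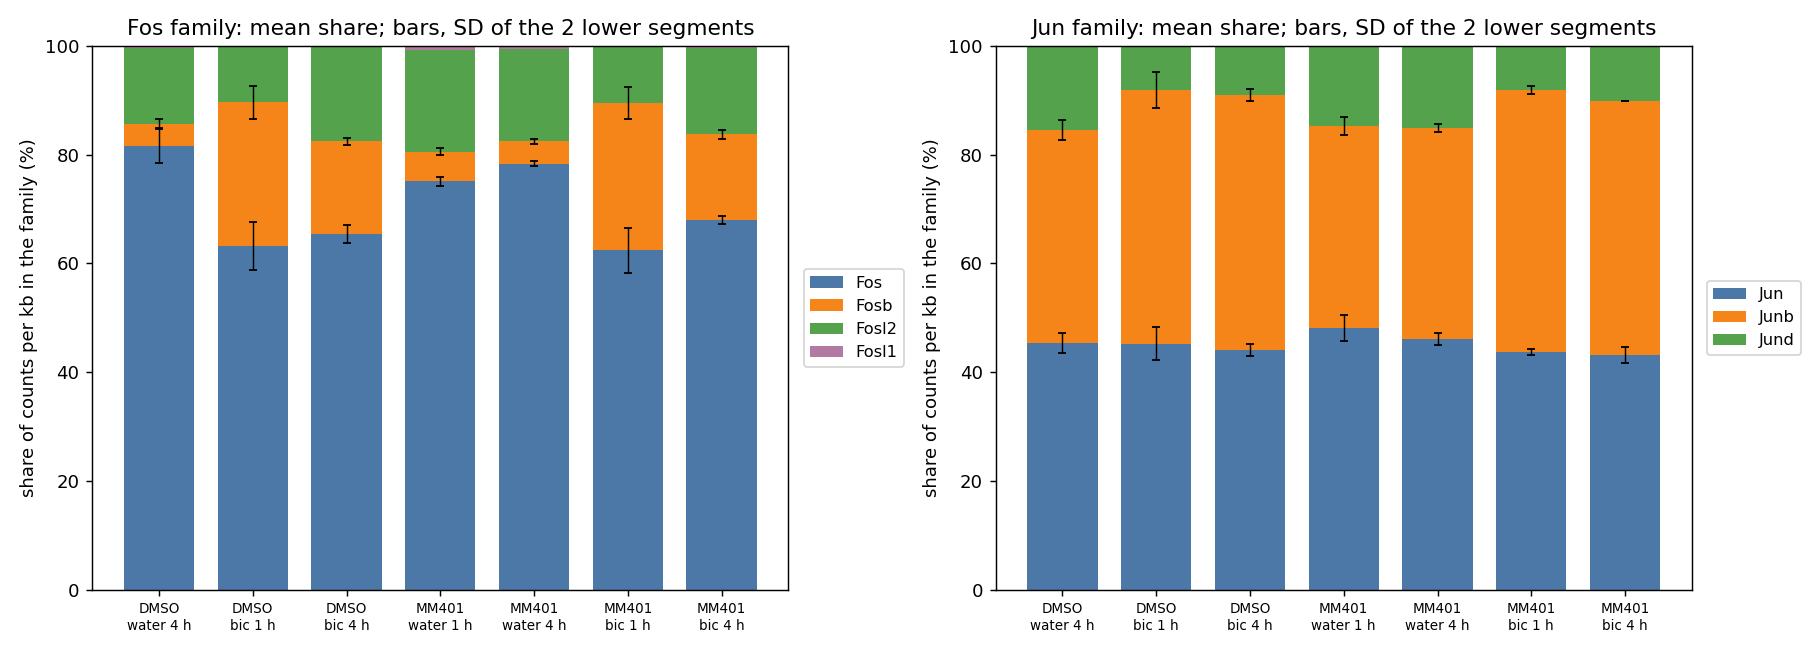
Mean share of each gene in the counts per kb of its family (vertical axis, %), stacked for the 7 groups, with bars for the SD of the lower pair of segments; bic stands for bicuculline and the order of Fos and Fosl2 turns on counts not divided by length. The Fosb segment of the Fos family is widest at 1 h of bicuculline (26.5% in DMSO and 27.0% in MM401), and in the Jun family the Jund segment is narrower in the bicuculline groups than in water.

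The next comparison asked whether MM401 moved the AP-1 genes. The counts of AP-1 genes called are edgeR's, and DESeq2 called 0 of 8 in each of these comparisons, in the interactions and in water over time. The number of the 8 with an unadjusted edgeR p under 0.05 was 0 in water at 4 h (2194 of all 16959 genes), 0 at 1 h of bicuculline (540) and 2 at 4 h (1309). In water at 4 h, 0 of 8 were called between MM401 and DMSO (background 0.0826%, 14 genes), and their log2 changes ran from -0.23 (Fos) to 0.39 (Fosl1). For Fosl1, the largest, the interval was -0.19 to 0.96 (edgeR adjusted p = 0.548). At 1 h of bicuculline 0 of 8 were called (background 0.0059%, 1 gene), with changes from 0.003 (Atf3) to 0.26 (Fosl1, interval -0.14 to 0.66, edgeR adjusted p = 0.999). At 4 h 0 of 8 were called (background 0%), with changes from -0.004 (Atf3) to 0.54 (Fosl1, interval 0.10 to 0.97, edgeR adjusted p = 0.639). Of all genes tested, 0 were called at 4 h by edgeR and 7 by DESeq2, while 1309 had an unadjusted edgeR p under 0.05, Fosl1 and Jund among them. These intervals leave room for differences in either direction at 1 h and do not show equal levels.

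At 4 h of bicuculline the CPM of Fos, Fosl1, Jun and Junb did not overlap between pretreatments and were higher in MM401, 4 of 8 against 6.3% of all genes tested. Fos stood at 88.4 to 97.5 CPM in DMSO and 106 to 111 CPM in MM401, Jun at 44.8 to 53.4 and 53.8 to 55.9 CPM, and Junb at 28.8 to 31.3 and 33.8 to 36.0 CPM. The medians over the 8 genes and over all genes were 0.19 and -0.003. The share of counts in genes under 25 kb, a class to which all 8 belong, moved with this difference: it was 10.1% to 10.7% in DMSO and 11.3% to 12.3% in MM401. Its part in the result was not tested.

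**Figure D5:**
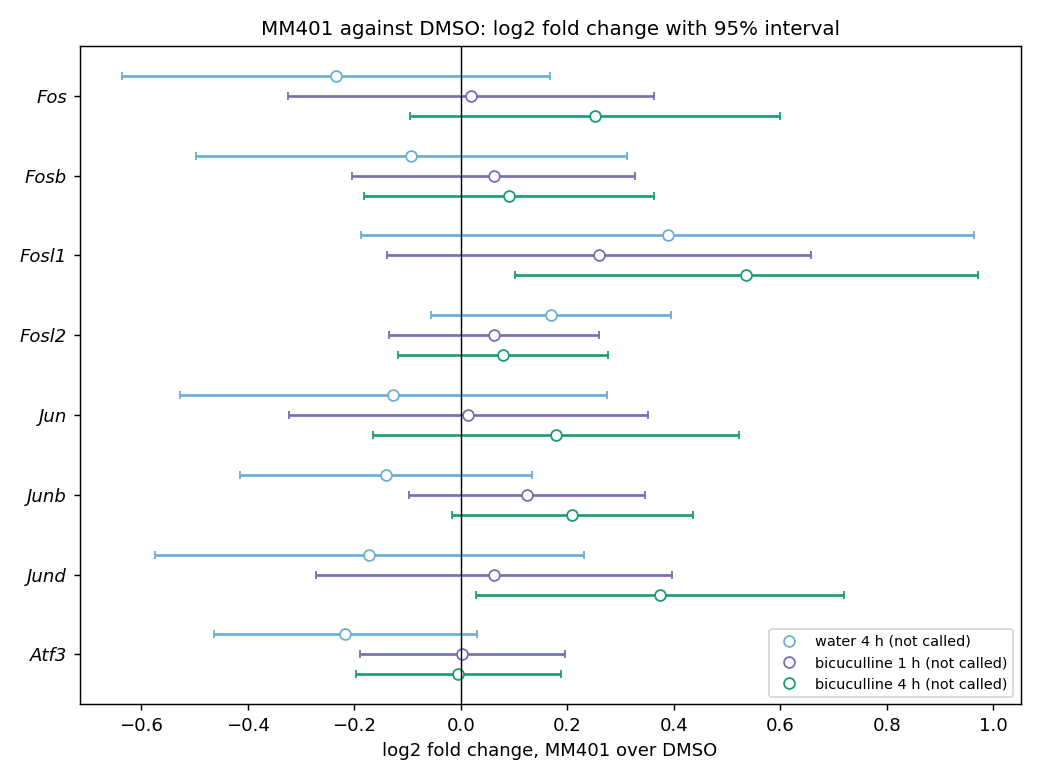
Log2 fold change of MM401 over DMSO (horizontal axis) for each AP-1 gene with its 95% interval, for the water groups of 4 h and the bicuculline groups of both times; open points were not called by edgeR. No point is filled, and the intervals of Fosl1 and Jund at 4 h of bicuculline lie above 0.

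An interaction is the log2 response to bicuculline in MM401 minus that in DMSO. At 4 h, each against its own water group, 0 of 8 genes and 0 of all genes were called by edgeR (background 0%), while DESeq2 called 436 genes and 2552 had an unadjusted edgeR p under 0.05, 1 of them an AP-1 gene. Values ran from -0.09 (Fosl2) to 0.55 (Jund), the largest, with an interval from 0.02 to 1.08 (edgeR adjusted p = 0.322). Under a correction for gene length the Jund value was 0.21. At 1 h, both against water at 4 h, 0 of 8 genes and 0 of all genes were called by edgeR (background 0%), 5 by DESeq2, and 1326 had an unadjusted p under 0.05, 0 of them AP-1 genes. Values ran from -0.13 (Fosl1) to 0.27 (Junb, interval -0.09 to 0.62, edgeR adjusted p = 0.729), and that of Junb changed sign to -0.01 under the gene length correction.

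Replicate 1 of DMSO with water at 4 h weighed on these comparisons. It had the lowest level of its group for 6 of the 8 genes, all but Fosb and Fosl1, and 10.8% of its counts in genes under 25 kb, against 13.0% and 13.8% in replicates 2 and 3. Without it, edgeR called 1272 genes between MM401 and DMSO in water, Atf3 among them (log2 change -0.35 ± 0.096, adjusted p = 0.0301). The interaction at 4 h then held 1551 calls, Junb among them (0.48 ± 0.14, adjusted p = 0.0403).

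Water itself could be compared over time in MM401. From 1 h to 4 h, 0 of 8 genes were called (background 0.867%, 147 genes), 1 member had an unadjusted edgeR p under 0.05 (Atf3, against 1699 of all genes), and log2 changes ran from -0.36 (Fosb, interval -0.76 to 0.05, edgeR adjusted p = 0.588) to 0.12 (Fos). Jun and Atf3 were lower at 4 h without overlap, 2 of 8 against 16.2% of all genes tested. These values bear on the DMSO response at 1 h, whose water libraries are those of 4 h.

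Partners and relatives of AP-1 in the basic leucine zipper family (29 genes, 27 tested) moved less uniformly. In DMSO at 1 h, 8 were called higher and 3 lower, with a median of 0.03, where 20% of all genes tested were called higher and 24.5% lower. Maff, a small Maf protein without an activation domain, rose from 1.43 ± 0.534 to 8.33 ± 0.553 CPM (SD, n = 3; log2 change 2.52 ± 0.20, edgeR adjusted p = 3.7e-09). Creb5 rose by 1.35 ± 0.061 (1.35e-13) and Crem, whose short form represses CREB targets, by 1.26 ± 0.065 (9.51e-13). Creb1, which encodes CREB, fell by 0.20 ± 0.056 (0.0054) and Atf2, a partner of c-Jun, by 0.18 ± 0.063 (0.023). Both calls, though not the direction, were lost with the compared groups fitted alone (-0.17 and -0.15, edgeR adjusted p = 0.117 and 0.227) and with all 21 libraries (0.0891 and 0.142). That of Atf2 was also lost with DESeq2 (adjusted p = 0.0977) and without replicate 2 of bicuculline at 1 h or replicate 1 or 2 of water (edgeR adjusted p = 0.102 to 0.154). At 4 h 9 were called higher and 0 lower (all genes 23.7% and 25.5%), with Maff at 1.30 ± 0.21 (2.4e-05), Crem at 1.17 ± 0.064 (4.12e-12) and the repressor gene Bach2 at 0.97 ± 0.064 (5.31e-11). In MM401 the counts were 9 higher and 1 lower at 1 h (all genes 18.1% and 21.8%), and 11 higher and 0 lower at 4 h (23% and 21.7%). Creb5 was higher by 0.49 ± 0.06 at 1 h in MM401, against water of the same time (1.27e-06). In MM401 with water Creb5 was itself called lower at 4 h than at 1 h (-0.76 ± 0.069, edgeR adjusted p = 1.97e-06), and its DMSO value at 1 h is set against water at 4 h.

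Genes of signalling to AP-1 (25, all tested: kinases, their scaffold, SRF and its partners, and ubiquitin ligase genes) had 10 called higher and 2 lower in DMSO at 1 h, against 20% and 24.5% of all genes, with a median of 0.12. Srf, a factor that acts on the Fos promoter, rose from 8.12 ± 1.43 to 14.2 ± 2.05 CPM (SD, n = 3; 0.80 ± 0.11, edgeR adjusted p = 6.52e-06). Fbxw7, a ubiquitin ligase subunit that marks c-Jun for breakdown, rose by 0.53 ± 0.067 (1.42e-06) and Elk3, an SRF partner, by 0.50 ± 0.092 (0.000121). Mapk3, which encodes the kinase ERK1, was lower by -0.34 ± 0.12 (0.0218) and Elk1 by -0.27 ± 0.069 (0.00312). With the gene length correction both values shrank, to -0.13 and -0.14, and both calls were lost (edgeR adjusted p = 0.352 and 0.126). The Mapk3 call was also lost with all 21 libraries (0.0770), with the groups compared alone (0.101), without replicate 3 of bicuculline (0.0823) and without replicate 2 or 3 of water (0.162 and 0.0623, edgeR adjusted p). At 4 h 14 were called higher and 6 lower, against 23.7% and 25.5%. The kinase genes Rps6ka5 (0.73 ± 0.057, 7.2e-10) and Rps6ka3 (0.70 ± 0.097, 3.71e-06) and the ubiquitin ligase gene Cop1 (0.65 ± 0.089, 3.37e-06) rose. Srf, higher at 1 h, was lower at 4 h by -0.42 ± 0.12 (0.00436), and Map2k7, a kinase of the JNK branch, by -0.36 ± 0.088 (0.00158). Both values at 4 h shrank with the gene length correction, to -0.24 and -0.18, and both calls were lost (edgeR adjusted p = 0.0966 and 0.0811). In MM401 the counts were 11 higher and 3 lower at 1 h (all genes 18.1% and 21.8%), and 11 higher and 4 lower at 4 h (23% and 21.7%).

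Of 30 genes reported as AP-1 targets in various tissues (28 tested), 17 were called higher and 0 lower in DMSO at 1 h (all genes 20% and 24.5%), with a median of 0.76, and 15 higher and 2 lower at 4 h (23.7% and 25.5%), with a median of 0.41. Ptgs2, which encodes cyclooxygenase-2, went from 12.9 ± 1.92 CPM in water to 110 ± 15 CPM at 1 h and 62.8 ± 10.4 CPM at 4 h (SD, n = 3). Its log2 changes were 3.09 ± 0.18 (edgeR adjusted p = 3.53e-09) and 2.28 ± 0.18 (5.56e-08). Dusp1, a phosphatase of MAP kinases, rose at 1 h by 2.87 ± 0.12 (6.09e-13), and Penk, the proenkephalin gene, by 2.31 ± 0.13 (2.08e-10) at 1 h and 1.78 ± 0.13 (3.64e-09) at 4 h. Pdyn, the prodynorphin gene, rose at 4 h by 1.91 ± 0.16 (1.68e-09). Ccnd1, a cyclin gene, was lower at 4 h by -0.45 ± 0.11 (0.0013), and Cdk5, a neuronal kinase gene, by -0.53 ± 0.20 (0.0321), a call lost without replicate 1 or 3 of bicuculline at 4 h, without replicate 2 of water and with the gene length correction (edgeR adjusted p = 0.105 to 0.165). In MM401 the counts were 19 higher and 1 lower at 1 h (18.1% and 21.8% of all genes), and 16 higher and 0 lower at 4 h (23% and 21.7%). The 3 lists were written with earlier results of these libraries known.

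Over the 20 libraries, the 3 genes whose log2 CPM was most like that of each member were found, which is a description, since all libraries share the contrast of bicuculline with water. Fosb was most like Nr4a1, a nuclear receptor gene (Pearson r = 0.999 over 20 libraries), then Peg10 (0.996) and Nr4a3 (0.996). Fos was most like Junb (0.992), then Btg2 (0.989) and Lbh (0.986). Junb was most like Fosb (0.993), Fos (0.992) and Nr4a1 (0.991), and Jun was most like Junb (0.991), Gm13889 (0.986) and Fos (0.986). Fosl2 was most like Fosb (0.993), Sik1 (0.993) and Rheb (0.991), and Fosl1 was most like Rgs13 (0.954), Smad7 (0.944) and Shc4 (0.938). Jund was most like Jun (0.970), Trib1 (0.968) and Pim3 (0.967). Atf3, the member that stayed high, was most like Nts, the neurotensin gene (0.994), Ifrd1 (0.994) and Spty2d1 (0.994). Its Spearman's rho was lower with Nts (0.808) and Ifrd1 (0.833) than with Spty2d1 (0.964). The 3 genes most like Atf3 held no AP-1 gene, and neither did those of Fosb and Fosl1.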

How the data were processed

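Counts per gene came from 1 table of 24984 mouse genes in 21 libraries, raw counts as the authors deposited them. Per the submitters' processing notes Bowtie2, UMI-tools, featureCounts, DESeq2 and deepTools were used with build mm10. Versions, annotation release, strand setting and treatment of reads with several positions are not given in the sources used here. The table's features span whole genes, introns included, per the file headers.

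Groups came from the labels. The counts of 20 libraries were fitted in R 4.3.3 with edgeR 4.0.16 (limma 3.58.1): filterByExpr (minimum count 10, minimum total 15) left 16959 genes, libraries were TMM-scaled, and robust quasi-likelihood tests (two-sided) used 1 mean per group and no block, with Benjamini-Hochberg adjustment over all genes in each of 12 comparisons. CPM are relative to the TMM-scaled total, and log2 levels for likeness used a prior count of 2 and genes with a mean of at least 1 CPM. On simulated data for bicuculline 1 h vs water 4 h in DMSO (16699 genes), 100% of 50 genes at each log2 change of -2, -1, 1 and 2 were called, and 0.0909% of 16499 unchanged ones. The simulation gave all genes the same spread, libraries no difference but their scaled totals, and changed genes in 1 group only. It checks the code, and its rates need not hold for these data. P-values measure the spread between libraries labelled as biological replicates. Replicate pairs differed beyond sampling noise (chi-square per degree of freedom 6.14 to 78.5 over 19 pairs).

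Groups share replicate numbers. Deviations from the group means were correlated between libraries of 1 number, and 25 of 57 coefficients were over 0.1 (median 0.0898, from -0.229 to 0.278). Among the groups compared, those with MM401 and DMSO at 4 h of bicuculline had all 3 over 0.1 (0.107 to 0.172). A fit with the replicate block was an alternative. Others were all 21 libraries, plain library size, no filter, DESeq2 1.42.0, the groups compared alone, leaving out each library, water at 1 h as MM401 reference and, chosen after seeing the data, a gene length correction (a trend on gene length per library added to the offsets) and, for the kept share, each library left out and water at 4 h as the MM401 reference.

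The members and lists were chosen with earlier results of these data known. Each member is named in the bicuculline comparisons, and elsewhere those called and the largest. From each pathway list up to 3 rising and 2 falling genes called in DMSO without overlap of CPM are named, and per member the 3 most alike genes. Marker lists covered neurons, excitatory and GABAergic neurons, astrocytes, the oligodendrocyte lineage, microglia, and endothelial, mural and fibroblast cells. Promoter sequences are RefSeq's.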

Additional observations from a re-analysis of the deposited data

Results flagged for a closer look

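Fosl1 had a signal in the library that the comparisons leave out, MM401 with water at 4 h replicate 3. It had 8 counts there, 25.3 CPM of the plain library total (exact Poisson 95% interval 10.9 to 49.8, for counting error only), above the 0.401 to 0.915 CPM of the 8 water libraries used. In the same library Fosl2 had 9 counts, Fos 4, Jund 1, Atf3 1, and Fosb, Jun and Junb 0 each, where 3 counts are worth 9.47 CPM. No cause was tested.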

How the results depend on the processing

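Over the 6 comparisons of bicuculline with water or of 4 h with 1 h of bicuculline, 603 of 616 values of the 8 genes under alternatives kept direction and side of the threshold, 10 fell short of it, 3 passed it and 0 changed sign. The exceptions are those given for Fosl1, Jund and Atf3. For the other comparisons only the member named as largest in each was followed, and 85 of 86 such values kept both, the exception being Junb in the interaction at 1 h, -0.012 with the gene length correction. Atf3 in water and Junb in the interaction at 4 h, not among them, were called without replicate 1 of DMSO with water. Of 338 values of the list genes 317 kept both and 21 fell short. The replicate block kept the call of 80 of 80 named values, and with it 4 genes rather than 1 were called between MM401 and DMSO at 1 h of bicuculline. With all 21 libraries, genes called were 3745 (not 5805) and 3646 (not 5691) between 1 h and 4 h of bicuculline in DMSO and MM401, 0 (not 14) between MM401 and DMSO in water and 19 (not 147) between water at 1 h and 4 h. Between MM401 and DMSO in water, plain library size gave 4, the groups compared alone 0, and DESeq2 162. DESeq2 called 14 and 7 genes between MM401 and DMSO at 1 h and 4 h of bicuculline, 275 in water over time, and 436 and 5 in the interactions at 4 h and 1 h. In water over time the groups compared alone gave 328 and the gene length correction 235. The interaction at 1 h gave 233 with water at 1 h as the MM401 reference. Leaving out a library gave 0 to 1272 genes between MM401 and DMSO in water, 0 to 2 at 1 h of bicuculline, 14 to 140 in water over time, and 0 to 1551 and 0 to 97 in the interactions at 4 h and 1 h. Members called ran from 0 to 1 in water and in the interaction at 4 h, the higher values in both without replicate 1 of DMSO with water. Where such a change was found its cause was not tested. Without the length correction 43 of 49 family shares moved by more than their SD. Spearman's rho of the likeness pairs ran from 0.808 to 0.980. Fosl1 had 29 to 148 counts per library.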
